A study of Malus domestica with 99 samples.

Results

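4 entries of the apple transcript tables carry the gene names XET01, XET02, BGAL101 and EXP1, named for xyloglucan endotransglucosylases, a beta-galactosidase and an expansin of the cell wall, and their levels were followed in fruit stored with or without 1-methylcyclopropene (1-MCP). The members were taken by gene name, with earlier results of these data known, and they are 4 of 55627 transcript entries. XET01 is entry NM_001294036, XET02 is NM_001294113, BGAL101 is NM_001293826 and EXP1 is NM_001294111, each with 1 row in the tables. XET01, XET02 and BGAL101 have values in all 3 cultivars, while EXP1 has values in Golden Delicious and Granny Smith only, since the Fuji table lists 27230 of the entries. Coordinates and sequences of these genes were not analysed here.

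The primary wall of a fruit cell holds cellulose fibres tethered by xyloglucan and embedded in pectin, and the loosening of this network accompanies the softening of ripe fruit. Xyloglucan endotransglucosylases, the enzymes that genes of the XET kind encode, cut xyloglucan chains and rejoin them. Beta-galactosidases remove galactose side chains from wall polysaccharides, and expansins loosen the contact between wall polymers without cutting them. Apple is a climacteric fruit whose ripening is driven by ethylene, and 1-MCP occupies the ethylene receptors so that ethylene is not perceived.

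The study sampled fruit cortex of the Malus domestica cultivars Golden Delicious, Granny Smith and Fuji at harvest and then at day 1, 7, 14 and 21 and at 2 months, as the labels' time codes are read here. At each time after harvest there was an untreated control group and a 1-MCP group, which had been exposed overnight after harvest in a closed container; how the control fruit were held that night is not given in the sources used here. That makes 11 groups in each cultivar and 33 in all, with 99 labelled libraries, 3 for each group and described as biological replicates. The harvest group of a cultivar is shared by its control and 1-MCP series. The label of cortex was taken as given, since no list of cortex markers was at hand.

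The tables hold 1 value per group, the mean of log2 values over its libraries, so a difference of 1 is a factor of 2 and no spread between fruit can be given. A value of -1 marks a gene listed at 0 in every library of a group, and group means under 1 can include libraries listed at 0. The low values fit 3 libraries in 31 groups and 2 libraries in the other 2, the Fuji control at day 14 and the Fuji 1-MCP group at 2 months. Depth is unknown. Tests therefore set a difference against its spread over the 3 cultivars, or over days 7, 14 and 21 within 1 cultivar, by limma with a two-sided test and Benjamini-Hochberg adjustment over all entries tested. A gene was called at an adjusted p under 0.05. Standard errors (SE) are over those 3 cultivars or 3 days. Days of the same storage series are not independent of each other, so the tests within a cultivar measure only how steady a difference was over time. Levels are not compared between genes, because the values are not known to be per transcript length.

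**Figure D1:**
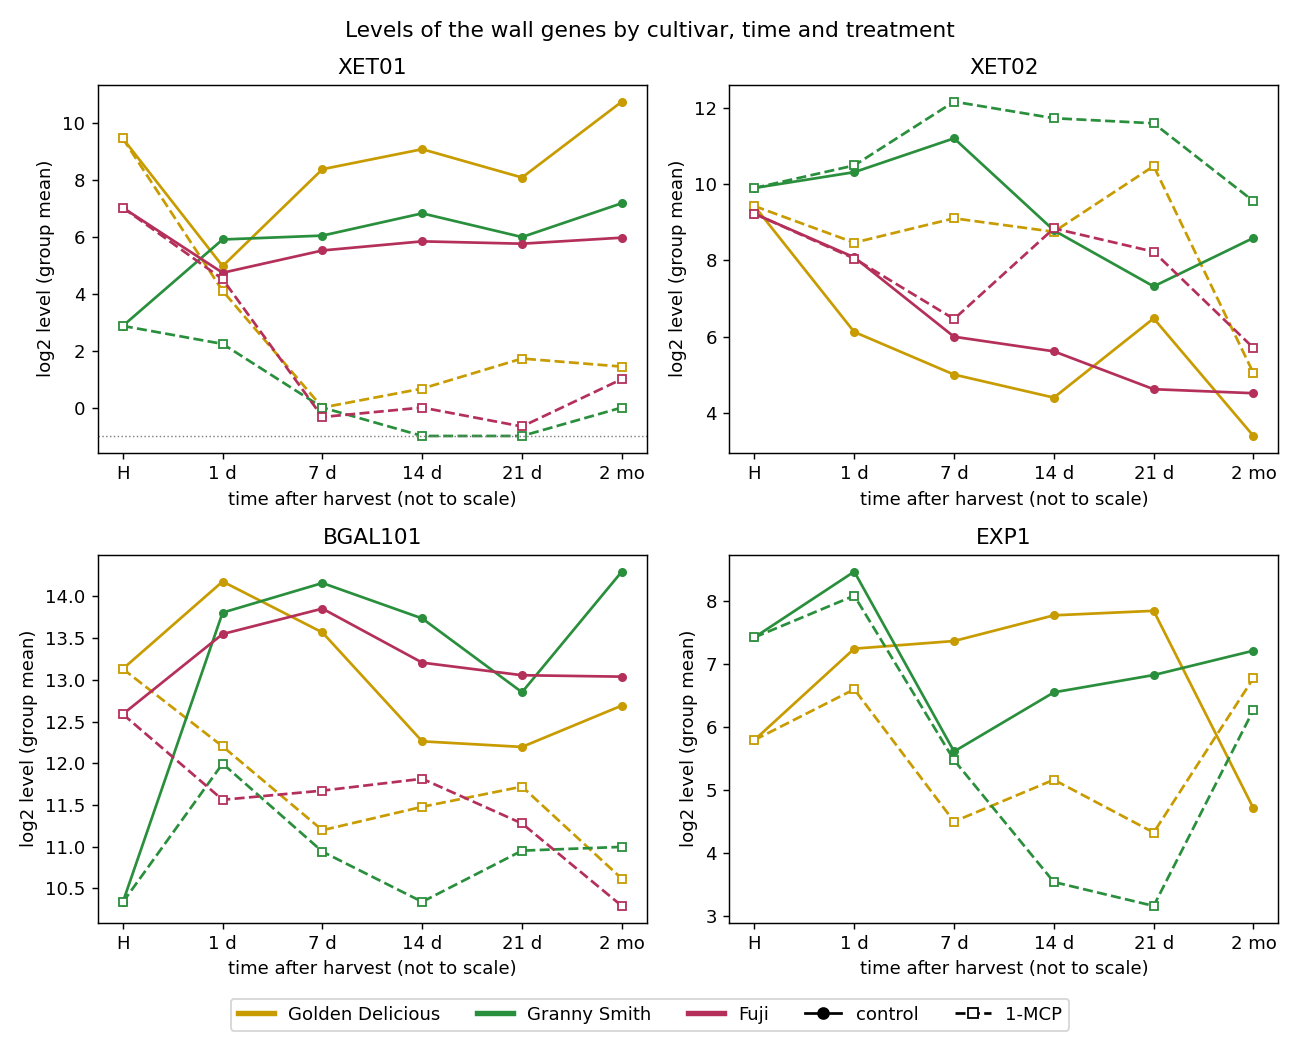
Group mean levels (log2, vertical axes with their own ranges) of XET01, XET02, BGAL101 and EXP1 against time after harvest (H, harvest; d, days; mo, months; not to scale), with colours for cultivars, filled circles and full lines for control fruit and open squares and dashed lines for 1-MCP fruit. The dotted line at -1 marks a gene listed at 0; from day 7 on every XET01 value of 1-MCP fruit lies under 2, and XET02 lies higher in 1-MCP fruit than in control fruit of the same cultivar.

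XET01 was near its lowest listed values in 1-MCP fruit from day 7 on, in all 3 cultivars, while control fruit kept it at log2 levels of 5.53 or more from day 7 to 2 months. XET02 moved the other way and was higher in 1-MCP fruit. BGAL101 was lower in 1-MCP fruit at every time in every cultivar, already at day 1. EXP1 had lower values in 1-MCP fruit over days 7, 14 and 21 in both cultivars that list it, which was called in Golden Delicious and not in Granny Smith. Counted over single pairs of groups of the same cultivar and time, 1-MCP fruit had the lower value in 15 of 15 pairs for XET01, in 15 of 15 for BGAL101 and in 9 of 10 for EXP1, and the higher value in 14 of 15 pairs for XET02. Pairs of the same cultivar are not independent, and how many of all entries are as one-sided was not counted. For the mean over days 7, 14 and 21 across cultivars, XET01 and BGAL101 were called lower and XET02 higher, while 34.4% of the 20999 entries tested were called (18.5% higher, 15.8% lower), so a call alone is common in this comparison. In such cortex samples, fewer cells of a type and less RNA per cell cannot be told apart.

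In Golden Delicious, XET01 stood at 9.47 at harvest. Control fruit had 4.97 at day 1, 8.38 at day 7, 9.09 at day 14, 8.09 at day 21 and 10.76 at 2 months. The 1-MCP fruit had 4.11 at day 1, then 0.00, 0.67, 1.72 and 1.44. Both series thus stood far below harvest at day 1, after which the control groups had high levels again and the 1-MCP groups had lower ones still. The ranges of the control and 1-MCP groups over days 7, 14 and 21 did not overlap. How many of all entries split likewise was not counted.

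Granny Smith started from a much lower XET01 level, 2.87 at harvest. Its control fruit had 5.91, 6.05, 6.83, 6.0 and 7.19 at day 1, 7, 14, 21 and 2 months. Its 1-MCP fruit had 2.24 and 0.00 at day 1 and 7, were listed at 0 at day 14 and 21, and had 0.00 at 2 months. All control values lay above the harvest value and all 1-MCP values below it.

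Fuji had an XET01 level of 7.03 at harvest. Control fruit stayed between 4.74 and 5.97, with 4.74 at day 1, 5.53 at day 7, 5.85 at day 14, 5.76 at day 21 and 5.97 at 2 months. The 1-MCP group had 4.52 at day 1, then -0.33, 0.00, -0.67 and 1.00. Control and 1-MCP fruit of Fuji differed little at day 1 and widely at every later time.

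At day 1 the XET01 difference between 1-MCP and control fruit was -0.87 for Golden Delicious, -3.67 for Granny Smith and -0.225 for Fuji. It was not called across cultivars (mean -1.59, limma adjusted p = 0.354), beside 8.57% of entries that were (4.09% lower). From day 7 on the size of the difference depends on the value that a listed 0 takes, since 1-MCP groups of XET01 hold libraries listed at 0. At day 7 alone the mean difference was -6.76 (limma adjusted p = 0.00245; this single-day value was added after the data were seen). Over days 7, 14 and 21 XET01 was called lower across cultivars (limma adjusted p = 0.0021). The mean difference there was -6.91 with the listed values and -4.56 with 4 added before the log (limma adjusted p = 0.00823). With 4 added it was -5.98 for Golden Delicious, -4.15 for Granny Smith and -3.55 for Fuji. The difference over days 7, 14 and 21 minus that at day 1, -5.32 with the listed values (limma adjusted p = 0.016) and -3.29 with 4 added (0.048), was called under both, beside 15.8% of entries called (9.15% higher, 6.62% lower). That call was lost without Fuji (adjusted p = 0.0711) and with neither trend nor robust moderation in the fit (adjusted p = 0.0643).

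After 2 months the XET01 difference was -9.32 for Golden Delicious, -7.19 for Granny Smith and -4.97 for Fuji, a mean of -7.16 (SE 1.25, limma adjusted p = 0.0174), and the mean was -5.47 with 4 added (adjusted p = 0.0424). Calls were made for 8.18% of entries in this comparison (4.37% higher, 3.81% lower). The XET01 call was lost without Granny Smith (adjusted p = 0.0994), with no filter on low entries (0.136) and with neither trend nor robust moderation (0.0543). The difference at 2 months was not shown to depart from that over days 7, 14 and 21 (limma adjusted p = 0.848). In Golden Delicious the median entry lay 0.12 higher in 1-MCP than in control fruit at 2 months, and the member differences are far from that shift.

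XET02, whose product belongs to the same kind of enzyme by its name, had similar harvest values in the cultivars, at 9.42 for Golden Delicious, 9.89 for Granny Smith and 9.22 for Fuji. Control fruit of Golden Delicious had 6.12 at day 1, 5.01 at day 7 and 4.40 at day 14, stood at 6.48 at day 21 and ended at 3.40 at 2 months. The 1-MCP fruit of that cultivar had 8.46, 9.10, 8.75 and 10.47 over the same days and 5.04 at 2 months. Treated Golden Delicious fruit thus stayed within about 1 log2 unit of harvest until day 14 and had their highest value at day 21, before ending far below harvest.

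Fuji control fruit had XET02 levels of 8.08, 6.0, 5.61, 4.62 and 4.52, each below the one before. The 1-MCP fruit of Fuji had 8.05, 6.46, 8.83, 8.22 and 5.70. Treated and untreated Fuji fruit were thus nearly level at day 1 and 7 and apart from day 14 on.

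Control fruit of Granny Smith stood above harvest at first, with 10.31 at day 1 and 11.19 at day 7, and then had 8.78, 7.32 and 8.59. The 1-MCP fruit had 10.48, 12.16, 11.72, 11.59 and 9.55, and stayed above harvest until day 21. The highest XET02 value among the 33 groups was that of treated Granny Smith fruit at day 7.

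The XET02 difference over days 7, 14 and 21 was 4.14 for Golden Delicious, 2.72 for Granny Smith and 2.43 for Fuji, a mean of 3.10 (SE 0.529, limma adjusted p = 0.00796). By size it was the 128th highest of 20999 entries. It was not called on day 7 alone (1.84, adjusted p = 0.155). At day 1 the differences were 2.34, 0.18 and -0.03, and XET02 was not called (mean 0.83, limma adjusted p = 0.560). The difference over the later days minus that at day 1 was 1.80, 2.55 and 2.46 in the 3 cultivars, and it was called (mean 2.27, SE 0.235, limma adjusted p = 0.00318).

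By 2 months the XET02 difference was smaller, at 1.65 for Golden Delicious, 0.96 for Granny Smith and 1.19 for Fuji, and it was still called (mean 1.26, SE 0.201, limma adjusted p = 0.0211). That call was lost without Granny Smith (adjusted p = 0.0871), without Fuji (0.112), with no filter (0.131) and with neither trend nor robust moderation (0.0720). The difference at 2 months minus that over days 7, 14 and 21, -2.50, -1.76 and -1.24, was not called (mean -1.83, SE 0.364, limma adjusted p = 0.0814). Only 0.00476% of entries, 1 entry, were called in that contrast, with 3589 entries at an unadjusted p under 0.05. Leaving out day 7 made XET02 a call there (-2.46, adjusted p = 0.0388).

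**Figure D2:**
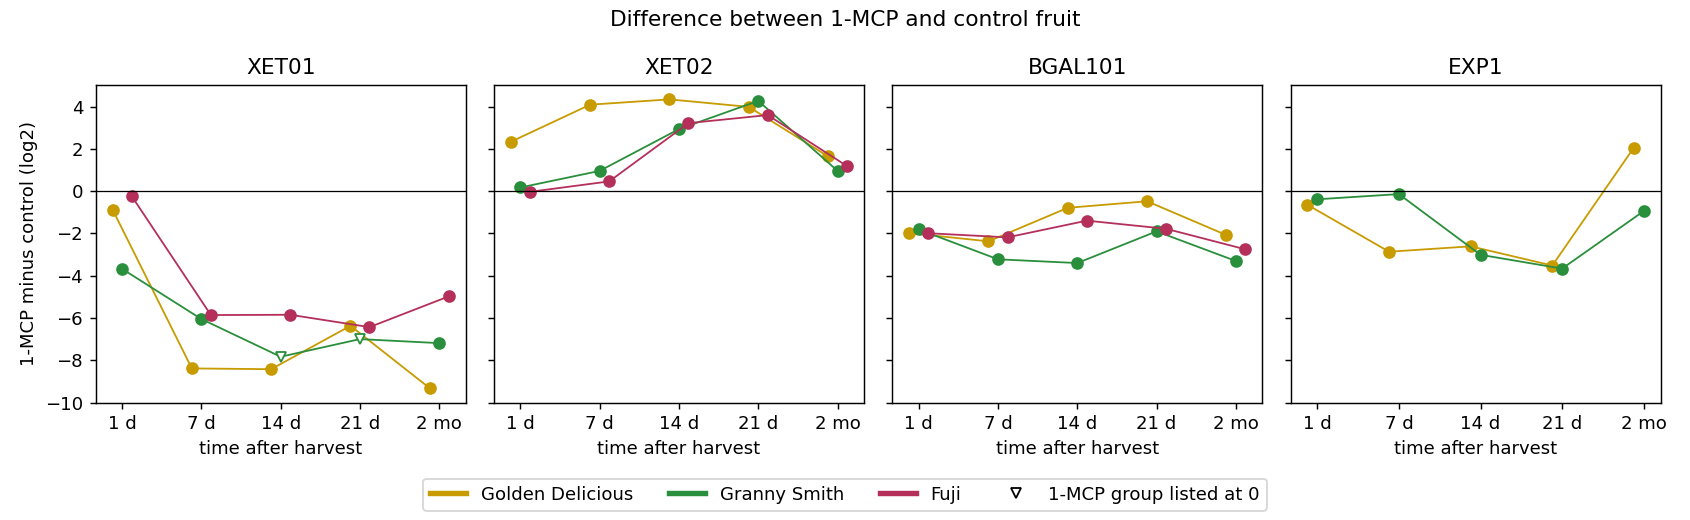
Difference between 1-MCP and control fruit of the same cultivar and time (log2, vertical axis) for XET01, XET02, BGAL101 and EXP1 at day 1, 7, 14, 21 and 2 months, one point per pair of groups and one colour per cultivar; open triangles mark a 1-MCP group listed at 0. XET01 and BGAL101 lie under the zero line at every point, XET02 lies above it in 14 of 15 pairs, and EXP1 of Golden Delicious crosses it at 2 months, with a difference of 2.07.

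BGAL101, whose product is a beta-galactosidase by its name, was present at high levels in every group and differed between treatments from the first day. In Golden Delicious its level was 13.13 at harvest. Control fruit had 14.18, 13.57, 12.26, 12.20 and 12.69 at day 1, 7, 14, 21 and 2 months, and 1-MCP fruit had 12.20, 11.20, 11.48, 11.72 and 10.62. Treated fruit were lower at each time, and the pair at day 21 lay closest, with a difference of -0.48.

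Granny Smith held the lowest harvest level of BGAL101, 10.33. Control fruit had 13.81 at day 1 and 14.16, 13.74, 12.85 and 14.30 after that. The 1-MCP fruit had 12.00 at day 1 and then 10.94, 10.34, 10.95 and 11.00. Control fruit of this cultivar thus stayed more than 2 log2 units above harvest, while treated fruit were above harvest at day 1 and within 0.664 of it from day 7 on.

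Fuji had 12.59 at harvest, with control values of 13.55, 13.85, 13.21, 13.06 and 13.04. Its 1-MCP fruit had 11.56, 11.67, 11.81, 11.28 and 10.29. Every control value of Fuji lay above harvest and every 1-MCP value below it.

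The BGAL101 difference at day 1 was almost the same in the 3 cultivars, at -1.98 for Golden Delicious, -1.81 for Granny Smith and -1.99 for Fuji (mean -1.93, SE 0.0574, limma adjusted p = 1.13e-05). BGAL101 was called at day 1, unlike the other two members with values in 3 cultivars. The call was lost with no filter on low entries (adjusted p = 0.111) and with neither trend nor robust moderation (0.0614), where no entry at all was called at day 1 by limma and 5014 and 4122 entries had an unadjusted p under 0.05. Over days 7, 14 and 21 the differences were -1.21, -2.84 and -1.78 (mean -1.95, SE 0.477, limma adjusted p = 0.0163), and BGAL101 was the 574th lowest of 20999 entries. Without Fuji the adjusted p was 0.0780, and on day 14 alone it was 0.0534. No change of the difference between day 1 and the later days was detected (mean -0.02, limma adjusted p = 0.978), and the sign of that mean changed without Granny Smith (0.485) and without day 7 (0.304).

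At 2 months the BGAL101 differences were -2.08, -3.30 and -2.75 (mean -2.71, SE 0.354, limma adjusted p = 0.0112). The call was lost without Granny Smith (adjusted p = 0.0711), without Fuji (0.0714) and with no filter (0.117).

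EXP1, the expansin gene, had values in 22 groups. In Golden Delicious it stood at 5.80 at harvest, and control fruit had 7.24, 7.37, 7.77 and 7.84 over day 1, 7, 14 and 21 and 4.71 at 2 months. The 1-MCP fruit had 6.60, 4.50, 5.17 and 4.33 over the same days and 6.78 at 2 months. Treated fruit were thus lower until day 21 and higher at 2 months, where the difference was 2.07. The mean difference over days 7, 14 and 21 was -3.00 (SE 0.271, limma adjusted p = 0.000678), beside 42.1% of the 42396 entries that were called in this cultivar (22.6% higher, 19.5% lower).

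Granny Smith had an EXP1 level of 7.42 at harvest, with control values of 8.47, 5.61, 6.55, 6.83 and 7.21. Its 1-MCP fruit had 8.08, 5.48, 3.54, 3.16 and 6.27. Control and treated fruit lay close together at day 1 and day 7, and they were apart at day 14 and 21. The daily differences were -0.14, -3.01 and -3.66, and their mean of -2.27 was not called (SE 1.08, limma adjusted p = 0.0582), while 39.4% of entries were (21.2% higher, 18.2% lower). Without day 7 the mean was -3.34 and was called (adjusted p = 0.000607). The 2 cultivars were not shown to differ in this effect (difference Golden Delicious minus Granny Smith -0.73, limma adjusted p = 0.598; 4.01% of entries called), and the sign of that difference changed without day 7 (0.273).

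Within single cultivars, XET01 was called lower over days 7, 14 and 21 in Golden Delicious (limma adjusted p = 0.000588), Granny Smith (0.000252) and Fuji (1.27e-05), the last beside 44.2% of entries (20.7% lower). XET02 was called higher in Golden Delicious (limma adjusted p = 0.000258) and Granny Smith (0.0251), but not in Fuji (0.0701). The Granny Smith call was lost without day 14 (adjusted p = 0.117), without day 21 (0.0540), with no filter (0.170) and with neither trend nor robust moderation (0.0655), and the Fuji value was called without day 7 (3.41, adjusted p = 0.000113) and with 4 added to the values before the log (0.0241). BGAL101 was called lower in Granny Smith (limma adjusted p = 0.00265) and Fuji (0.000222), but not in Golden Delicious (0.0574). Its Granny Smith call was lost with no filter (adjusted p = 0.0737), and in Golden Delicious it was called without day 7 (-0.63, adjusted p = 0.0169) and with 4 added (0.0482). For each member and cultivar, the 3 control groups and the 3 1-MCP groups of days 7, 14 and 21 did not overlap. How many of all entries split likewise was not counted, so this does not set the members apart. Of the other wall genes described below that passed the filter, PG1, AFase1, MAN2 and MAN3 did not overlap in Golden Delicious or Granny Smith either. Nor did HRGP in Granny Smith, where it was not called. HRGP did overlap in Golden Delicious and Fuji.

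The difference between cultivars in these effects was tested as well. For XET02, Golden Delicious minus Granny Smith was 1.42 (limma adjusted p = 0.310) and Golden Delicious minus Fuji was 1.71 (0.358; 7.57% of entries called), and neither was called. For BGAL101 the difference of Golden Delicious from Granny Smith was 1.63 (limma adjusted p = 0.0773), and that of Granny Smith from Fuji was -1.06 (0.158; 6.79% called). Golden Delicious minus Fuji was 0.574 for BGAL101 (limma adjusted p = 0.301) and was called without day 7 (0.955, adjusted p = 0.0187). The XET01 contrasts of Golden Delicious with Granny Smith and with Fuji were not called (limma adjusted p = 0.483 and 0.125), but with 4 added, a setting in which values near 0 count less, both were called with a larger fall in Golden Delicious (-1.83, adjusted p = 0.0152, and -2.43, 0.00308). The contrast with Fuji was also called without day 21 (-2.55, adjusted p = 0.0101).

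**Figure D3:**
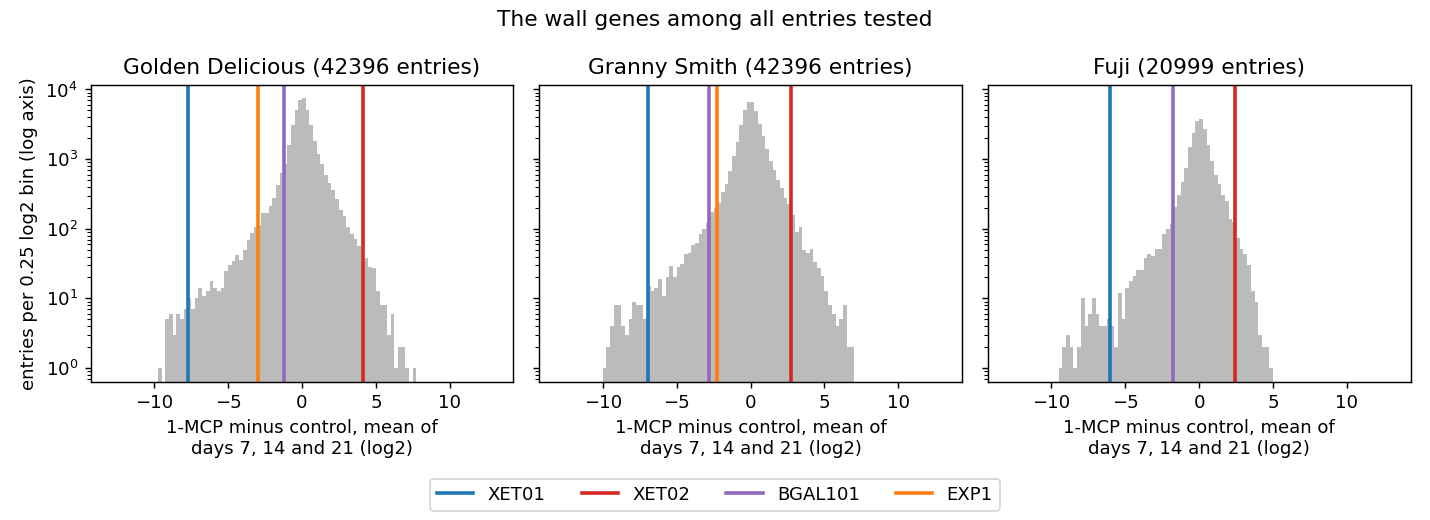
Histograms of the 1-MCP minus control difference, mean of days 7, 14 and 21 (log2, horizontal axis), over all entries tested in each cultivar, with the number of entries per 0.25 log2 bin on a log axis and coloured lines for the wall genes. XET01 lies in the far lower tail and XET02 in the upper tail of each cultivar, at -7.72 and 4.14 in Golden Delicious; the XET01 lines use the listed values, and that of Granny Smith rests on 2 groups listed at 0.

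Changes over storage were compared with harvest at day 21. XET02 fell in control fruit, by 2.94 for Golden Delicious, 2.58 for Granny Smith and 4.60 for Fuji (mean -3.37, SE 0.621, limma adjusted p = 0.0245; 8.89% of entries called, 5.59% lower). That call was lost without Golden Delicious (adjusted p = 0.106), without Fuji (0.0584), with no filter (0.121) and with neither trend nor robust moderation (0.0578). In 1-MCP fruit XET02 was at 1.05, 1.69 and -0.99 relative to harvest in the same order, which was not called (limma adjusted p = 0.521; 24.2% of entries called, 11.6% lower), and without Fuji it was called higher (1.37, adjusted p = 0.0398).

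XET01 of control fruit differed from harvest in opposite directions, at -1.38 for Golden Delicious, 3.13 for Granny Smith and -1.27 for Fuji, with no call across cultivars (mean 0.16, limma adjusted p = 0.926). Without Granny Smith the mean was -1.32, and it was not called either (adjusted p = 0.0894). In 1-MCP fruit XET01 was called lower at day 21 than at harvest (limma adjusted p = 0.0186), with 1.72 against 9.47 in Golden Delicious. Granny Smith was listed at 0, and the Fuji mean of -0.67 holds libraries listed at 0, so no size is given for these cultivars. That call was lost without Golden Delicious (adjusted p = 0.105), without Fuji (0.0713), with no filter (0.105) and with 4 added (mean -4.27, 0.0632).

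BGAL101 of control fruit was at -0.94, 2.52 and 0.47 relative to harvest (mean 0.68, limma adjusted p = 0.519), and without Granny Smith the mean was -0.23. In 1-MCP fruit it was at -1.41, 0.62 and -1.31 (mean -0.70, limma adjusted p = 0.340), and without Granny Smith it was called lower (-1.36, adjusted p = 0.0138). For EXP1, day 21 minus harvest in Golden Delicious was 2.05 for the control group and -1.47 for the treated group, and in Granny Smith it was -0.60 and -4.26. These EXP1 values have no test, since only 2 cultivars hold them.

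**Figure D4:**
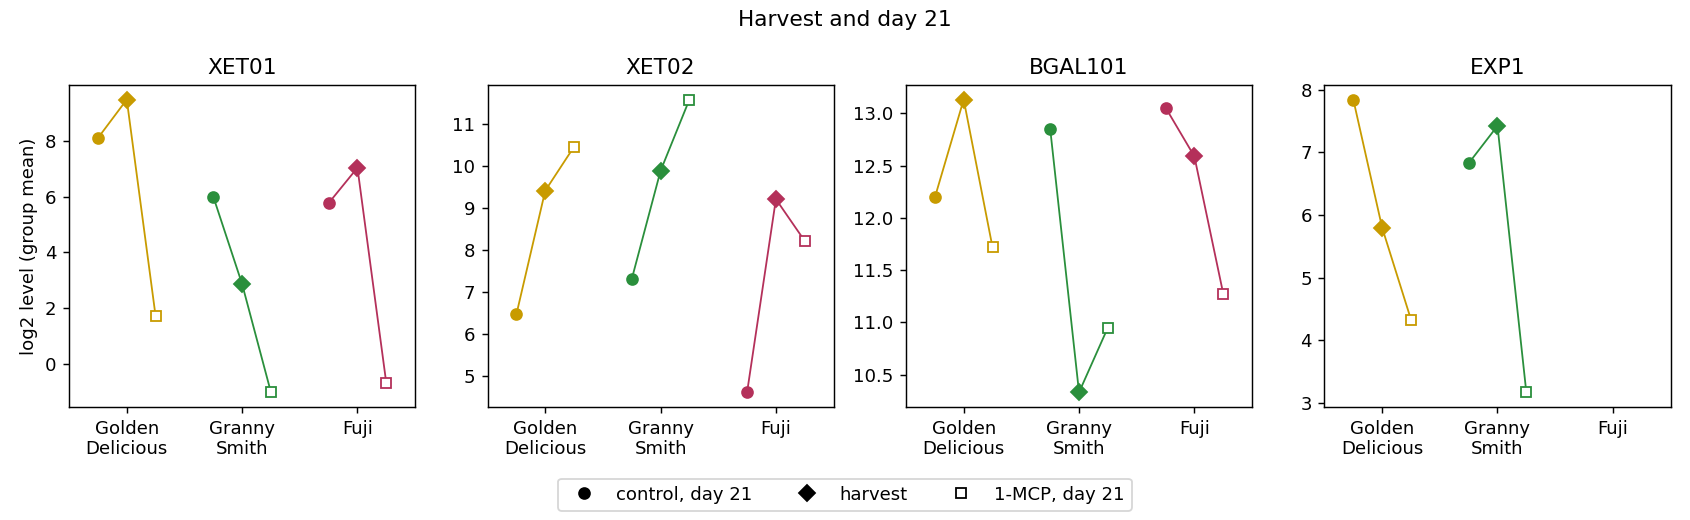
Group mean levels (log2, vertical axes with their own ranges) at harvest (diamonds) and at day 21 in control (circles) and 1-MCP fruit (open squares), joined within each cultivar. XET02 of control fruit lies below harvest in all 3 cultivars, by 2.58 to 4.60, while for XET01 and BGAL101 Granny Smith stands apart through its low harvest values of 2.87 and 10.33; EXP1 has no Fuji values.

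For each member, other entries of the tables followed nearly the same course (Pearson r of 0.95 or more over the groups, a limit set after the values were seen). They carry no gene name in the files, and whether they share reads with the members is not given by the files, so the members' levels are uncertain to that degree. XM_008371365 (r = 0.996) and AY144593 (r = 0.988) followed XET01 over 33 groups. EU494961 (r = 0.999) and AY144594 (r = 0.998) followed XET02, and KC107807 followed BGAL101 so closely that KC107807 minus BGAL101 had an SD of 0.0235 over 33 groups. AY083166 (r = 0.987) and AB099928 (r = 0.983) followed EXP1 over 22 groups.

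AB099928 has Fuji values, which EXP1 lacks. In Fuji it was at 7.08 at harvest, control fruit had 7.06, 6.70, 6.90, 7.37 and 2.87, and 1-MCP fruit had 7.67, 6.08, 4.29, 4.18 and 1.00. Treated Fuji fruit were lower than control fruit from day 7 on, and both groups were low at 2 months. Across the 3 cultivars the difference of AB099928 over days 7, 14 and 21 was -2.50 (SE 0.271, limma adjusted p = 0.00416). In Granny Smith, where EXP1 was not called, AY083166 (-2.21, limma adjusted p = 0.0215) and AB099928 (-2.33, 0.0322) were called lower, with differences close to that of EXP1. Both entries were picked for following EXP1 over these same groups, so their calls give no separate evidence for EXP1.

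**Figure D5:**
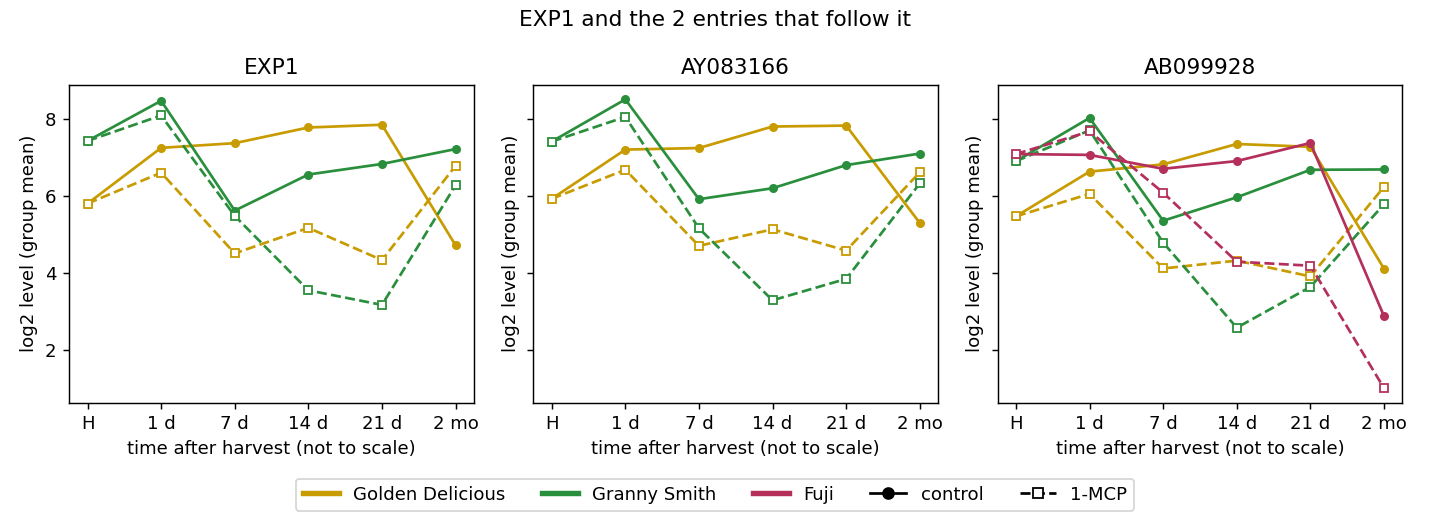
Group mean levels (log2, vertical axis) of EXP1 and of the entries AY083166 and AB099928 against time after harvest (not to scale), with colours for cultivars, filled circles for control and open squares for 1-MCP fruit. The 3 entries share their course in Golden Delicious and Granny Smith, the groups over which AY083166 and AB099928 were picked for following EXP1. AB099928 also has Fuji values, where treated fruit had 4.18 and control fruit 7.37 at day 21. Whether it is the same gene as EXP1 is not known.

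Likeness was also measured for entries with a gene name, as Pearson r over the same groups and with no test, since the groups share cultivars and harvest fruit. Only 439 of the 55627 entries carry a gene name, and only those of them that passed the filter were ranked. The named genes most like XET01 were PSY2, a phytoene synthase gene of carotenoid synthesis (r = 0.886), LOX7a, a lipoxygenase gene (0.866), and ETR2, an ethylene receptor gene (0.863). Closest to XET02 were MADS2 (0.746), IAA4, of the Aux/IAA family of auxin response repressors (0.737), and BHLH21 (0.726). For BGAL101 they were CAS1 (0.782) and 2 entries of SCL5 (0.758 and 0.755), and for EXP1 they were CAS2 (0.724), Ap15 (0.575) and CAS1 (0.547). Between the members, XET01 and BGAL101 had r = 0.724 over 33 groups, with 0.642 for Golden Delicious, 0.905 for Granny Smith and 0.738 for Fuji over 11 groups each. XET01 and XET02 had r = -0.480, and the value was negative in each cultivar, from -0.667 in Granny Smith to -0.255 in Fuji.

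Of 9 other wall genes listed by name, 6 had an entry in the tables and 5 passed the filter in Golden Delicious and Granny Smith. Of these 5, only PG1 came from the planned list, and the others were added on reading the gene table. Over days 7, 14 and 21, 4 of the 5 were called lower in 1-MCP fruit of Golden Delicious and 3 of the 5 in Granny Smith, with none called higher. Golden Delicious had 19.5% of all entries called lower, and Granny Smith had 18.2%. The medians of the 5 genes were -0.722 and -0.745, where the median over all entries lay between 0.005 and 0.028 on each day. PG1, a polygalacturonase gene whose enzyme cuts pectin, had a difference of -7.90 in Golden Delicious (SE 1.14, limma adjusted p = 0.00271) and -9.45 in Granny Smith (SE 0.525, adjusted p = 0.000281). In Granny Smith the 1-MCP group at day 14 had a PG1 level of 0.94, a mean that can include libraries listed at 0. AFase1, an arabinofuranosidase gene by its name, differed by -0.464 (limma adjusted p = 0.0111) and -0.745 (0.0024). MAN3 differed by -0.722 (limma adjusted p = 0.0193) and -0.663 (0.0130) and was called in both cultivars. MAN2 was called in Golden Delicious (-2.71, limma adjusted p = 0.00456) and not in Granny Smith (-1.21, 0.0501). Its 1-MCP groups of Golden Delicious were at 0.00, -0.33 and 0.33 on day 7, 14 and 21. Such low means can include libraries listed at 0, so the size of this MAN2 difference is uncertain. HRGP was called in no cultivar (limma adjusted p from 0.0727 to 0.872), and CWI, a cell wall invertase gene by its name, did not pass the filter. The genes mdpgip1, pgip2 and Lactase were not analysed here.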

How the data were processed

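The deposited tables hold log2 values, 1 column per group, which the authors named FPKM; low values (under 1) fit means over 3 or 2 libraries of the log2 of whole numbers (tolerance 0.0003). Per the labels' protocols, non-directional libraries gave 100-bp reads, so a gene and its antisense partner cannot be told apart. STAR 2.5.1a and HTSeq are named in the submitters' processing notes; the genome build is not given in the sources used here. Of 55627 entries, 22330 (40.1%) were matched to the RefSeq gene table by accession.

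Entries with log2 of 2 or more in 3 columns were tested (20999 in 3 cultivars, 42396 in 2) with limma 3.58.1 in R 4.3.3, with variance trend and robust moderation, after a check on simulated data. The check drew independent normal differences with spreads shuffled over entries, so it cannot decide whether the variance trend suits these data. XET01 reached 2 in 21 of 33 columns, the other members in every column. Alternatives were no filter, 4 added before the log, median centring, no trend or robust moderation, and leaving out each cultivar or day. Single days, and leaving out Fuji day 14, were added after seeing the data.

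Members and lists were chosen with earlier results of these data known. All 4 members are named, the 3 named and 3 other entries most like each are found by Pearson r, and every wall gene found by name is reported; PG1, mdpgip1 and pgip2 came from the planned list, while AFase1, Lactase, CWI, HRGP, MAN2 and MAN3 were added on reading the gene table. Families by description, proteins, promoters and motifs were planned and not analysed here. The third entries most like the members, beside those that nearly copy them, were XM_008389253 for XET01 (r = 0.934), XM_008346803 for XET02 (0.893) and XM_008356207 for EXP1 (0.875), and for BGAL101 they were XM_008340168 (0.850) and XM_008364039 (0.840).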

Additional observations from a re-analysis of the deposited data

Results flagged for a closer look

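Cultivars moved in opposite directions from harvest, each by 1 log2 unit or more, in all 4 wall genes at some time; this limit, and the check at every time, were chosen after the data were seen. These are single group means, and the difference between cultivars was not tested. How many of all entries met this limit at some time was not counted, so it does not set the members apart.

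XET01 of control fruit, relative to harvest, was at -4.49 in Golden Delicious and -2.29 in Fuji at day 1, against 3.04 in Granny Smith. At day 7 it was at -1.08 and -1.50 against 3.18, and at day 14 Fuji was at -1.18 against 3.96 in Granny Smith. Day 21 had -1.38 and -1.27 against 3.13. After 2 months, control fruit of Fuji were at -1.05, and those of Golden Delicious and Granny Smith at 1.29 and 4.32. Granny Smith had the lowest XET01 level at harvest and its control fruit lay above harvest at every time.

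XET02 of control fruit at day 7 was at -4.41 in Golden Delicious and -3.22 in Fuji and at 1.30 in Granny Smith. In 1-MCP fruit at that day it was at -2.76 in Fuji and 2.26 in Granny Smith. BGAL101 of 1-MCP fruit at day 1 was at 1.66 in Granny Smith and -1.03 in Fuji. EXP1 of control fruit at day 7 was at 1.57 in Golden Delicious and -1.81 in Granny Smith.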

How the results depend on the processing

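No paired analysis was possible because each column is a group mean and carries no replicate number. All 42 member values were recomputed; median centring changed no call or direction of a member, and leaving out Fuji day 14, a mean of 2 libraries, changed none over days 7, 14 and 21. The lost and gained calls stand beside the results; the cause was not tested. Over the runs without a cultivar or day, signs changed for the day 21 minus harvest value of control fruit for XET01 (-1.32 to 0.93) and BGAL101 (-0.23 to 1.49), the change of the 1-MCP effect from day 1 for BGAL101 (-0.41 to 0.49) and to 2 months for XET01 (-0.91 to 0.42), and the effect in Golden Delicious minus Granny Smith for XET01 (-1.46 to 0.0201) and EXP1 (-1.29 to 0.27); none of these was called.

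Counts of called entries moved more. Leaving out a cultivar or day in turn, they ranged from 2166 to 7498 for days 7, 14 and 21 (7214 in the reported fit), 491 to 923 for day 1 (1799), 22 to 1572 for 2 months (1718), 0 to 844 for control day 21 minus harvest (1866), 1153 to 3459 for 1-MCP day 21 minus harvest (5086), 878 to 3829 for the change of effect from day 1 (3312) and 0 to 20 for the change to 2 months (1). They ranged from 2595 to 14455 in Golden Delicious (17848), 4634 to 17526 in Granny Smith (16706) and 5266 to 7469 in Fuji (9279). For cultivar differences they ranged from 0 to 5755 (Golden Delicious minus Granny Smith, 1699), 217 to 1917 (Golden Delicious minus Fuji, 1590) and 288 to 2270 (Granny Smith minus Fuji, 1426).

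With no filter, 0 entries were called by limma at day 1, 2 months, control and 1-MCP day 21 minus harvest and the change to 2 months, where 5014, 6080, 6773, 8061 and 3734 had an unadjusted p under 0.05. There were 1073 for the change from day 1, 7391, 3810 and 4373 within Golden Delicious, Granny Smith and Fuji, and 0 for the cultivar differences, with 9895, 5233 and 4844 unadjusted. With neither trend nor robust moderation limma called 0 at day 1 (4122 unadjusted), 415 at 2 months, 600 and 2122 for control and 1-MCP day 21 minus harvest, 223 for the change from day 1 and 0 for that to 2 months (3204 unadjusted). For Golden Delicious minus Granny Smith, Golden Delicious minus Fuji and Granny Smith minus Fuji it called 0, 5 and 0 (7854, 4161 and 3947 unadjusted). With 4 added, 0 were called for the change to 2 months (3552 unadjusted), and day 21 alone gave 3482. Depth is unknown, so no limit of detection can be given for XET01 in 1-MCP fruit.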
